A study of Mus musculus with 9 samples.

Results

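This account covers 34 mouse genes for lysosomal hydrolases and lysosomal membrane proteins, listed by gene symbol, as measured in the stromal vascular fraction (SVF) of inguinal fat after wound repair priming. SVF is what remains of fat tissue after enzymatic digestion once the buoyant adipocytes have been discarded, and it holds progenitors, vessel cells and leukocytes. The members were found as probe sets (groups of short probes against a transcript) whose platform annotation gives exactly 1 gene symbol, equal to a member's current or older symbol. Of the 34 genes, 33 were named by 81 probe sets and 32 were tested, among 18193 genes named and 11796 genes tested on the array. Cd63, a tetraspanin of late endosomes, was not analysed here, and Tfeb did not pass the filter on detection. RNA came from wild type Balb/c mice aged 10 weeks, with 3 mice per day (days 0, 1 and 3) and an array for each mouse. Priming and a day count from injury are what the labels give. In the study's methods, priming joined surgical injury of the fat pad (mincing) with ischemia by ligation of its feeding artery, and day 0 is taken here as the nonprimed SVF. No group separates injury from ischemia or from the operation itself, and every array holds a mixture of cells. In such bulk samples, fewer cells of a type and less RNA per cell cannot be told apart.

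Lysosomes are acidic compartments that degrade material taken up from outside the cell or delivered by autophagy. Soluble hydrolases, most of them tagged with mannose 6-phosphate in the Golgi, cleave glycoproteins, sphingolipids, glycosaminoglycans, neutral lipids and proteins, and a deficiency of a single enzyme gives a lysosomal storage disease. The vacuolar proton pump (V-ATPase) acidifies the lumen, and heavily glycosylated membrane proteins such as LAMP1 and LAMP2 line the limiting membrane. In fat, macrophages use lysosomal acid lipase to hydrolyse lipid taken up from adipocytes, and phagocytes in wounds depend on lysosomes to digest debris.

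Values are MAS5 signals on a linear scale, scaled by the authors so that every array has the same trimmed mean. Present calls numbered 25677 to 26299 per array for day 0, 24106 to 25557 for day 1 and 25069 to 25292 for day 3, and actin's 3' to 5' signal ratio was 1.15 to 1.32. Changes are log2 differences with their standard error. They come from limma across all 11796 genes with Benjamini-Hochberg adjustment, and a gene is called at an adjusted p under 0.05. The median change over all genes was -0.13 for day 1 over day 0, -0.03 for day 3 over day 0 and 0.09 for day 3 over day 1. Of the members tested, 31 were called present on all 9 arrays, the exception being Atp6v0d2.

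Most lysosomal genes were not called on day 1, and those called on day 3 against day 0 were higher. On day 1 against day 0, 7 of 32 members were higher (21.9%), 3 were lower (9.38%) and 22 were not called. The 31.2% called in either direction was near the 28.6% of all genes, of which 10.7% were called higher and 17.9% lower. With median centring of the arrays 10.8% of all genes were lower, about the share of the members. On day 3 against day 0, 13 members (40.6%) were higher and 0 were lower by limma (1, Ids, at an unadjusted p under 0.05, a change under 2-fold), where the background was 13.6% higher, 12.5% lower and 26.1% in either direction. On day 3 against day 1, 12 members (37.5%) were higher and 3 (9.38%) were lower, against a background of 9.66% higher, 4.54% lower and 14.2% in either direction. Without day 3 replicate 1 these counts were 3 and 1 (background 4.20% higher), without day 1 replicate 2 they were 5 and 1 (5.26%), and without day 3 replicate 2 they were 5 and 2 (4.02%). With median centring they were 7 and 4, where the background was 5.59% higher and 7.29% lower. The median change of the members was 0.05 for day 1 over day 0, 0.25 for day 3 over day 0 and 0.31 for day 3 over day 1. The comparisons with day 0 share the same 3 day 0 mice. No set test was run, and the members and lists were chosen with results of these data known.

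**Figure D1:**
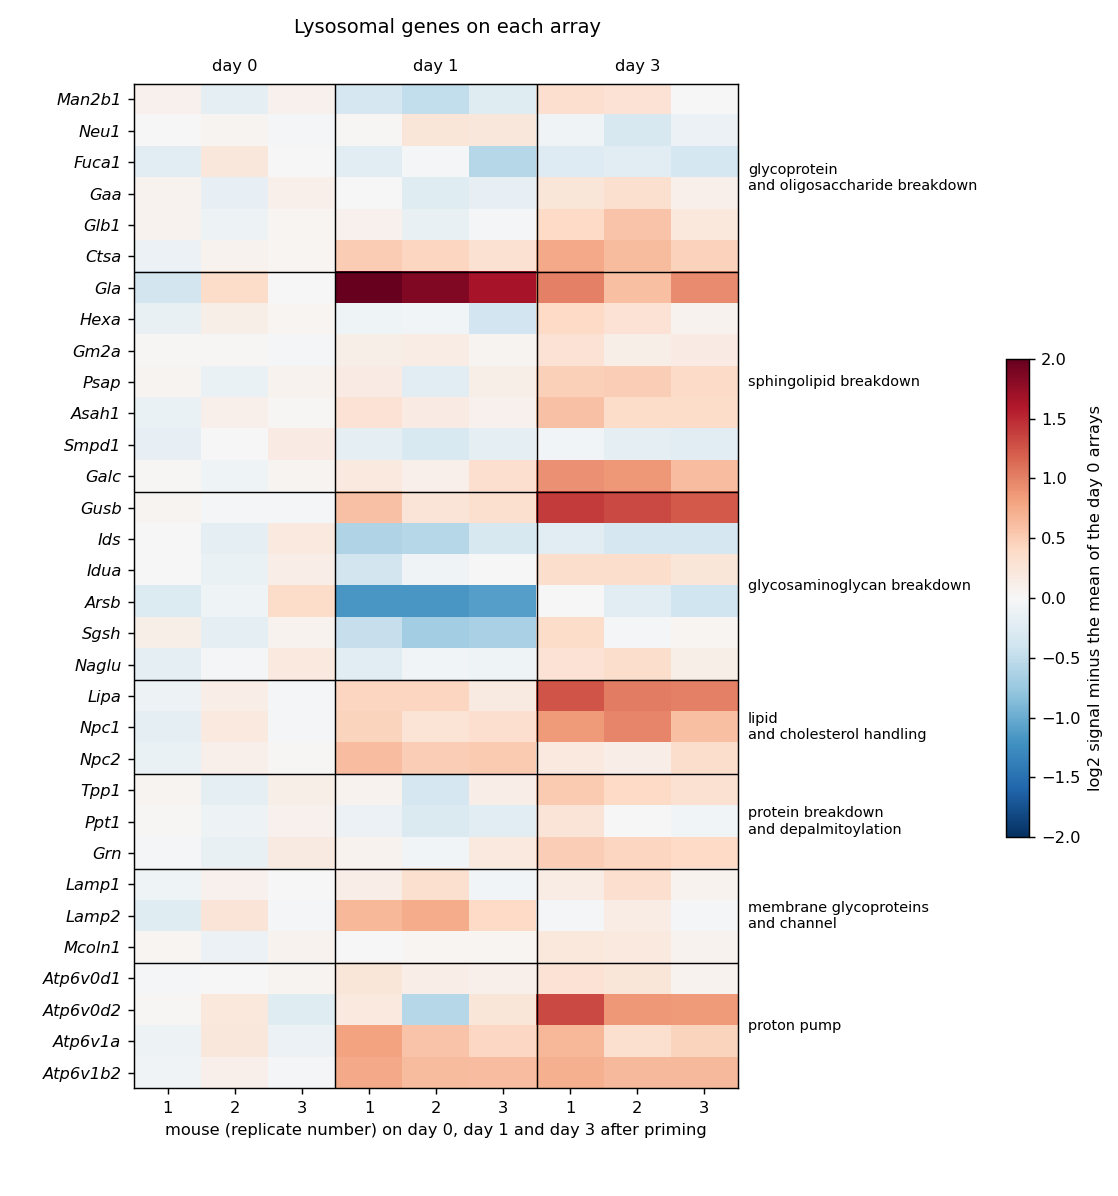
Heat map of the 32 tested members (rows, grouped by role) on the 9 arrays (columns, 3 mice on each of days 0, 1 and 3), with color giving log2 signal minus the mean of the day 0 arrays of the same gene. Gla is darkest on day 1, Gusb and Lipa on day 3, and Arsb is below its day 0 level on all 3 day 1 arrays.

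By pattern, and with the 1 probe set tested per gene, 21 members were called in at least 1 comparison and 11 in none. Gla, Gusb, Ctsa, Atp6v1a and Atp6v1b2 were higher than day 0 on both later days. Npc2 and Lamp2 were called higher on day 1 only, and Lipa, Npc1, Galc, Psap, Asah1, Grn, Glb1 and Atp6v0d2 on day 3 only. Arsb, Ids and Sgsh were lower on day 1. Man2b1, Hexa and Idua were called only in day 3 against day 1, where they were higher. Neu1, Fuca1, Gaa, Gm2a, Smpd1, Naglu, Tpp1, Ppt1, Lamp1, Mcoln1 and Atp6v0d1 were not called in any comparison. For genes called on 1 day only, the difference between the days is the test of day 3 against day 1 given with each gene.

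**Figure D2:**
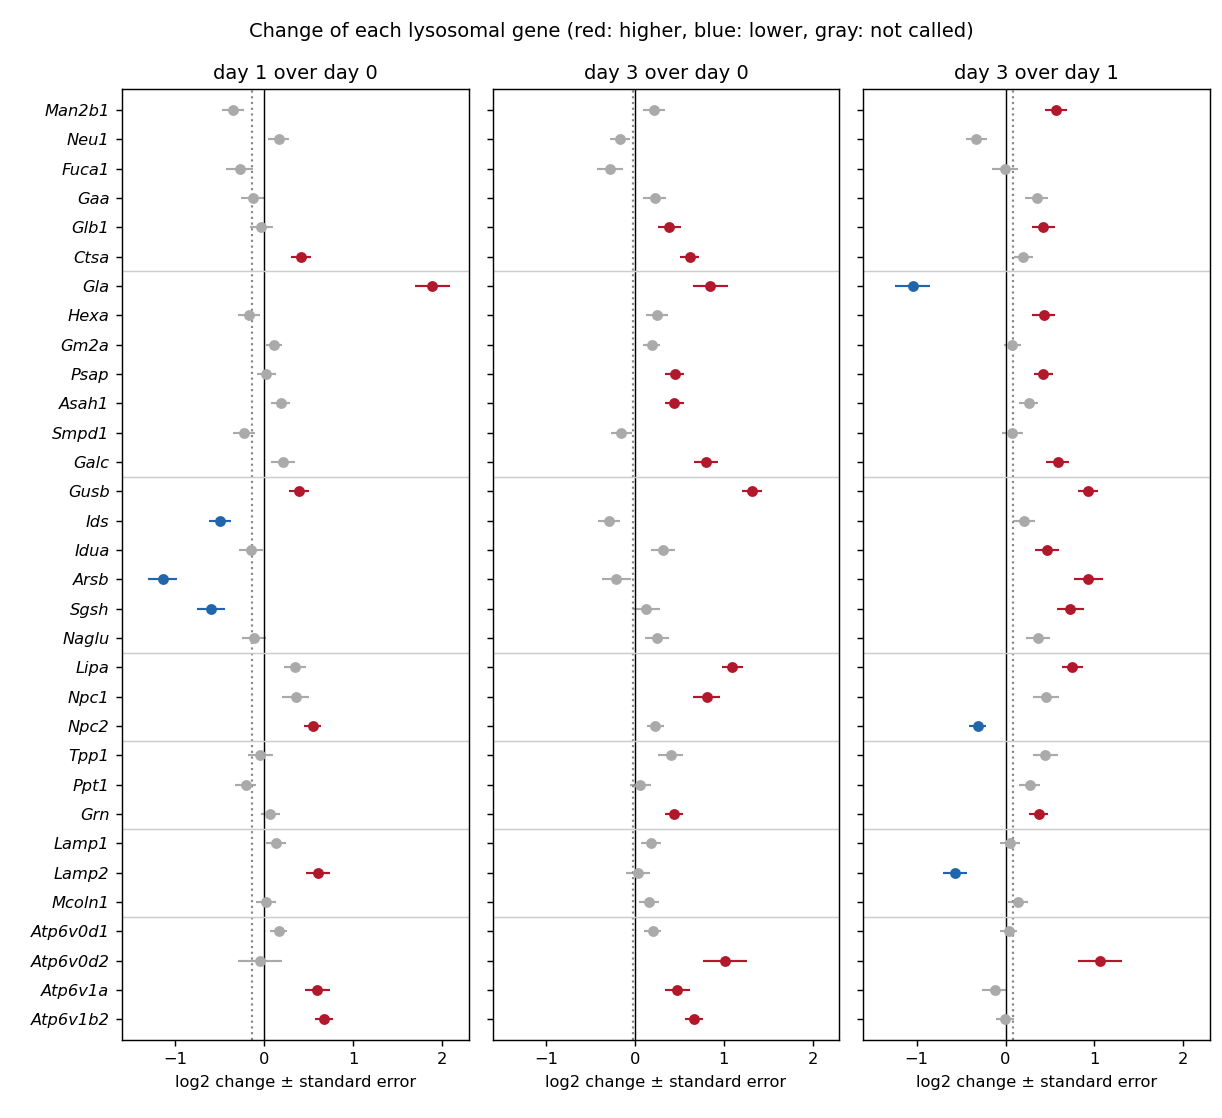
Log2 change with its standard error (horizontal axis) of each of the 32 members (vertical axis, in blocks by role) for day 1 over day 0, day 3 over day 0 and day 3 over day 1, from limma on 3 mice a day. Red points were called higher, blue points lower and gray points were not called, and the dotted line is the median change of all 11796 genes.

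Cell type markers moved on the same arrays. The mean log2 signal of 6 neutrophil markers was 3.05 to 3.61 above the day 0 mean on the day 1 arrays and 1.67 to 2.45 above it on the day 3 arrays, with 4 of the 6 called higher on each day and 1 lower on day 3. Their summed signal was 6112 to 8870 on day 0, 45187 to 77748 on day 1 and 11228 to 23066 on day 3. Single neutrophil markers changed by 0.30 to 6.22 on day 1 (median 3.33) and by -1.01 to 4.11 on day 3 (median 2.61). For 5 monocyte markers the mean log2 signal was 2.61 to 3.04 above day 0 on day 1 and 1.85 to 1.90 above it on day 3, with 4 called higher on each day. These means cover unlike changes, from 0.14 to 8.37 on day 1 (median 1.88) and from -0.03 to 5.03 on day 3 (median 1.40). Summed monocyte signals were 18531 to 20343 on day 0, 40225 to 47898 on day 1 and 29149 to 29443 on day 3. For 13 macrophage markers the mean log2 signal was 0.30 to 0.62 above day 0 on day 1 (4 higher, 2 lower) and 0.52 to 0.83 above it on day 3 (5 higher, 0 lower by limma or at an unadjusted p under 0.05). Single macrophage markers changed by -0.50 to 3.91 on day 1 (median 0.14) and by -0.19 to 3.23 on day 3 (median 0.26). Summed macrophage signals were 86384 to 98533, 90864 to 108584 and 98059 to 121029 on days 0, 1 and 3. The 6 stromal progenitor markers had a mean of -0.60 to -0.47 relative to day 0 on the day 3 arrays, and 4 of the 6 were called lower. Of 3 B cell markers 1 was called lower on day 1 and 2 on day 3, and of 4 T cell markers 3 were called lower on each day. For 5 endothelial markers the mean log2 signal was -0.52 to -0.38 relative to day 0 on the day 1 arrays, with 3 called lower, and -0.33 to -0.25 on the day 3 arrays, with 2 called lower. On day 3, 3 of 4 mast cell markers and 2 of 2 adipocyte markers were called lower than on day 0. For day 3 over day 1, 3 macrophage markers were called higher (Trem2 by 2.26, Adgre1 by 0.69 and Csf1r by 0.60) and 1 lower. Cxcr2 and Chil3, listed here under neutrophils and monocytes, were not called present on any day 0 array and passed the filter through later days only. Trem2 was called present on 1 day 0 array, 1 day 1 array and 3 day 3 arrays, so it passed the filter through day 3 only. The part of the cell mixture in the members' changes was not tested.

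**Figure D3:**
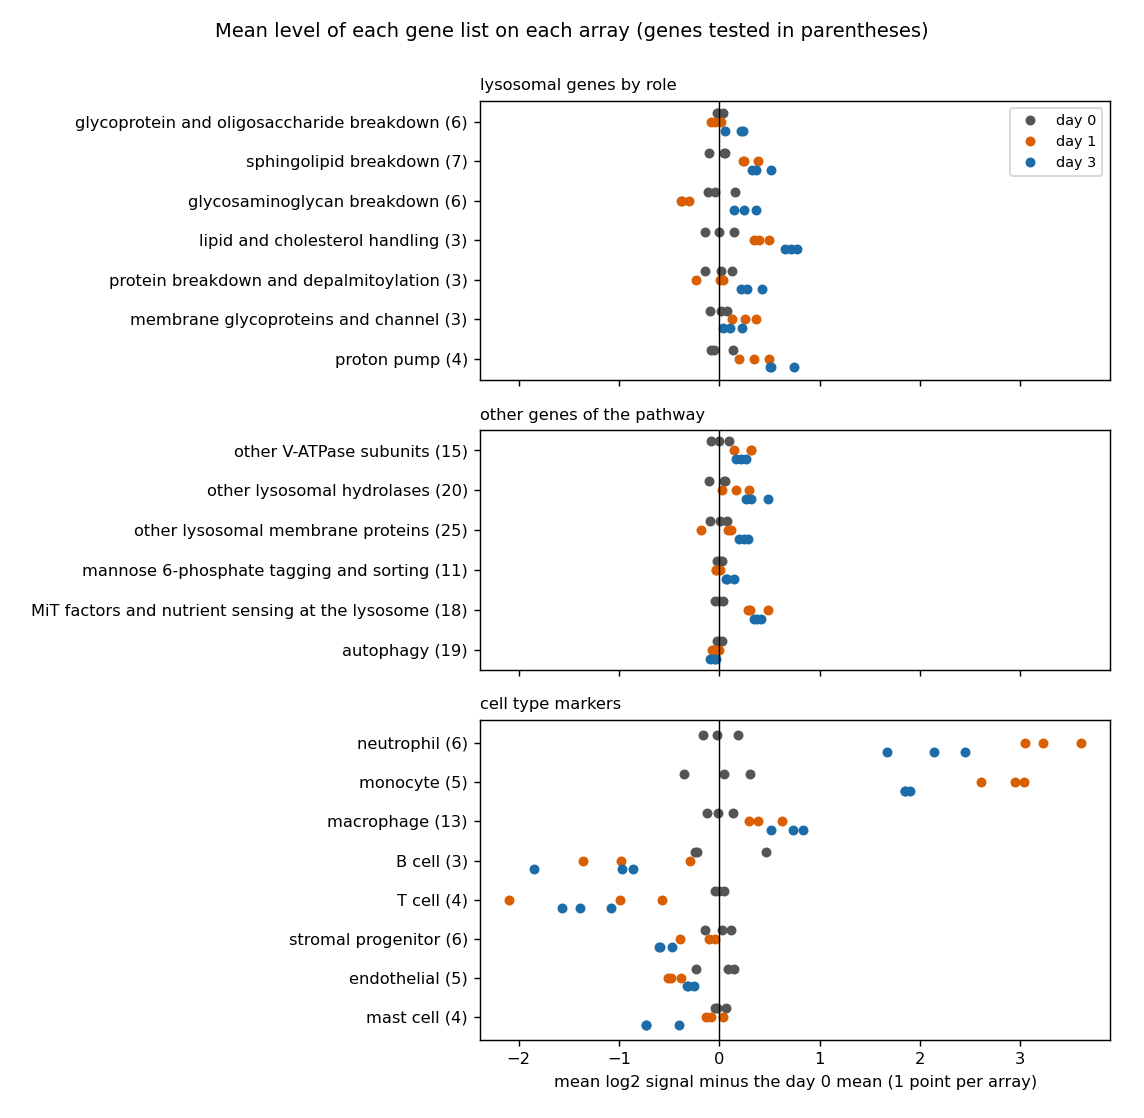
Mean log2 signal of each gene list on each array minus its mean over the day 0 arrays (horizontal axis), with 1 point per array in rows for the members by role, other genes of the pathway and cell type markers. Lipid and cholesterol genes and the proton pump stood above day 0 on all later arrays, the glycosaminoglycan enzymes below it on day 1 and neutrophil and monocyte markers far above it on both days.

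Promoters of lysosomal genes often carry the CLEAR element, an extended E-box bound by the basic helix-loop-helix factor TFEB and its relatives. Because this element is shared by genes that moved differently here, the promoter windows of the called members with its longer core GTCACGTG are shown, before the values. RefSeq windows (build GRCm38.p6) from 250 bases before to 50 bases after a gene's start were matched for 30 of the 34 members. The letters CACGTG, the E-box, were found in 10 of 30 members (33.3%), in 8.09% of all 27025 genes with a window and in 11.5% of the 9539 tested genes with a window. TCACGTG was also in 10 members, among them the called Atp6v1a, which is not shown, and in 6.82% of tested genes. The longer GTCACGTG, which contains the others, was found on either strand in 8 of 30 members (26.7%), against 2.55% of all genes and 4.68% of tested genes. These 8 members are Gla, Sgsh, Ctsa, Glb1, Atp6v0d1, Lamp1, Mcoln1 and Naglu, and the last 4 were called in no comparison. A match is a description of letters and not a binding site. The 4 called members are shown 5' to 3' on the strand of the gene, with GTCACGTG or its reverse complement in capitals.
Gla (chrX:134600956-134601255, minus strand): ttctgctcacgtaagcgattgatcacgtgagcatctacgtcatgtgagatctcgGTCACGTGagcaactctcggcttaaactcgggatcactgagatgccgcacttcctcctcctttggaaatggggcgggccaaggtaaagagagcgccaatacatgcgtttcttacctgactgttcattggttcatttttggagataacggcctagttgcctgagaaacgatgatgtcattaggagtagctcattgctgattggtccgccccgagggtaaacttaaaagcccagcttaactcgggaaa
Sgsh (chr11:119355461-119355760, minus strand): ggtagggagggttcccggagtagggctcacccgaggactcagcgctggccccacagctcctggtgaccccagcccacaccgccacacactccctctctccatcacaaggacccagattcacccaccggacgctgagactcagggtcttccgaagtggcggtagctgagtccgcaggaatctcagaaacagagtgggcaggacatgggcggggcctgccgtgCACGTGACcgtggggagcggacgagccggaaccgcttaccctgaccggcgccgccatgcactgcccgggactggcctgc
Ctsa (chr2:164833523-164833822, plus strand): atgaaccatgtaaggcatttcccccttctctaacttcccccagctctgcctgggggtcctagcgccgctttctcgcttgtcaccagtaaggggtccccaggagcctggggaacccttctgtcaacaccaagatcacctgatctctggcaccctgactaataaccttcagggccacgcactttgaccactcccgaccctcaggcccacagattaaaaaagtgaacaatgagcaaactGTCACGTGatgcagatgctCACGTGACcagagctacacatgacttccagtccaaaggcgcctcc
Glb1 (chr9:114400828-114401127, plus strand): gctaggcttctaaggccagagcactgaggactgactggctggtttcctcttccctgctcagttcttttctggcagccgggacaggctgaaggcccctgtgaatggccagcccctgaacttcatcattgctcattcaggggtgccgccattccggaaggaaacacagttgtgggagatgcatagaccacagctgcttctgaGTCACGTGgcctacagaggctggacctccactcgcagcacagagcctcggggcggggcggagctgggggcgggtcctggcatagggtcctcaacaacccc
The motif began 196 bases before the start in Gla, 29 before it in Sgsh and 50 before it in Glb1, and Ctsa had 2 matches, at 14 bases before the start and 6 after it. Gla was highest on day 1, Sgsh was lowest on day 1, Ctsa was called higher on both later days and Glb1 on day 3 only, so members with the same 8 letters in this window had different courses.

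Among the 7 genes for sphingolipid breakdown, 1 was higher on day 1 (14.3%, near the 10.7% of all genes) and 4 were higher on day 3 (57.1%, against 13.6%). Gla encodes alpha-galactosidase A, which removes galactose from globotriaosylceramide and is deficient in Fabry disease. Its signal was 735, 1223 and 955 on day 0, 4314, 3443 and 2964 on day 1, and 1907, 1438 and 1825 on day 3. The ranges of the 3 days did not overlap, with day 1 highest and day 3 between the others. Gla was 3.72-fold higher on day 1 than on day 0 (1.89 ± 0.20, adjusted p = 5.6e-05) and 1.80-fold higher on day 3 than on day 0 (0.85 ± 0.20, adjusted p = 0.0089). It was 2.06-fold lower on day 3 than on day 1 (-1.05 ± 0.20, adjusted p = 0.0056). This day 1 change was the largest among the 32 members in either direction. A second Gla probe set, not called present on any day 0 array, passed the filter through the later days only. It gave 160 to 166 on day 0, 656, 411 and 420 on day 1, and 347, 270 and 345 on day 3. It was called higher on day 1 (1.56, adjusted p = 0.00024 over probe sets) and day 3 (0.96, adjusted p = 0.0049) than on day 0. Its change for day 3 over day 1 was -0.60 and was not called (adjusted p = 0.068).

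Galc encodes galactosylceramidase, the enzyme of Krabbe disease. Its signal was 352 to 391 on day 0, 403 to 471 on day 1 and 574 to 705 on day 3, so that no day overlapped another. It was 1.74-fold higher on day 3 than on day 0 (0.80 ± 0.13, adjusted p = 0.0013) and also higher on day 3 than on day 1 (0.59 ± 0.13, adjusted p = 0.014), while the day 1 change of 0.21 ± 0.13 was not called (adjusted p = 0.25). The call for day 3 over day 1 was lost without day 1 replicate 2, day 3 replicate 1 or day 3 replicate 2 (adjusted p 0.052 to 0.073). Psap encodes prosaposin, the precursor of the saposin activators of sphingolipid hydrolysis. Its signal was 18925 to 20469 on day 3 and 13332 to 15344 on day 0, a 1.36-fold difference (0.45 ± 0.11, adjusted p = 0.011), and its day 1 change was 0.02 ± 0.11. For day 3 over day 1 Psap was also called (0.42 ± 0.11, adjusted p = 0.023), but not without day 1 replicate 2, day 3 replicate 1 or day 3 replicate 2 (adjusted p 0.066 to 0.092). Median centring (adjusted p = 0.087), no filter (0.060) and no variance trend (0.063) also ended that Psap call. Asah1, acid ceramidase, was 4349 to 5032 on day 3 and 3074 to 3613 on day 0 (0.44 ± 0.11, adjusted p = 0.012), a call lost without day 3 replicate 1 (adjusted p = 0.068).

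Hexa, the alpha subunit of beta-hexosaminidase A, was called only in day 3 against day 1, with 7308 to 9187 on day 3 and 5354 to 6699 on day 1 (0.43 ± 0.12, adjusted p = 0.041). That call was lost without day 0 replicate 3, any of the 3 day 1 mice, or day 3 replicate 1 or 2, with adjusted p between 0.055 and 0.17. For Hexa it was also lost with median centring, no filter, no variance trend or only the 6 arrays compared (adjusted p 0.060 to 0.16). Gm2a, the GM2 activator that presents ganglioside to this enzyme, had changes of 0.11 ± 0.09 on day 1 and 0.19 ± 0.09 on day 3 over day 0, and neither was called. Smpd1, acid sphingomyelinase, had changes of -0.23 ± 0.12 and -0.15 ± 0.12, also not called. Within this group the calls on day 3 were thus those of Gla, Galc, Psap and Asah1, and Smpd1 was the only gene whose estimates lay below 0 on both later days.

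The 6 enzymes of glycosaminoglycan breakdown held all 3 lower calls of day 1 (50% of the group, against 17.9% of all genes). On the same arrays 3 of 5 endothelial markers were lower on day 1 than on day 0, among them Cdh5 (-0.51 ± 0.13, adjusted p = 0.018). Cdh5 was the only 1 of the 5 called for day 3 over day 1, where it was higher (0.78 ± 0.13, adjusted p = 0.0035). The median of the 5 for day 3 over day 1 was 0.01. Kdr stayed lower on day 3 than on day 0 (-0.68 ± 0.13, adjusted p = 0.0032), and Emcn was not called on either day. Other markers were lower on day 1 as well: 3 of 4 T cell markers (median -1.23) and 1 of 3 B cell markers (median -0.90), where the endothelial median was -0.51. The part of endothelial cells, T cells or B cells in the changes of these enzymes was not tested. Arsb encodes arylsulfatase B, which removes sulfate from dermatan and chondroitin sulfate. Its signal was 2147, 2443 and 3364 on day 0, 1156, 1166 and 1219 on day 1, and 2583, 2243 and 1975 on day 3. All day 1 arrays lay below every array of the other days, while days 0 and 3 overlapped. Arsb was 2.21-fold lower on day 1 than on day 0 (-1.14 ± 0.16, adjusted p = 0.00054) and 1.91-fold higher on day 3 than on day 1 (0.93 ± 0.16, adjusted p = 0.0037). For day 3 over day 0 the change was -0.21 ± 0.16 (adjusted p = 0.37). A dimmer Arsb probe set was also lower on day 1 (-0.83, adjusted p = 0.024 over probe sets), but its change for day 3 over day 1 was 0.14 (adjusted p = 0.73).

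Sgsh encodes heparan N-sulfatase, the enzyme of Sanfilippo syndrome type A, whose promoter is given above. Its signal was 413, 332 and 400 on day 0, 277, 236 and 242 on day 1, and 488, 375 and 392 on day 3. The day 1 arrays lay below all others. Sgsh was 1.52-fold lower on day 1 than on day 0 (-0.60 ± 0.15, adjusted p = 0.016) and 1.66-fold higher on day 3 than on day 1 (0.73 ± 0.15, adjusted p = 0.010). The day 1 call was lost without day 0 replicate 1 (adjusted p = 0.056) or day 0 replicate 3 (adjusted p = 0.058), and the call for day 3 over day 1 without day 3 replicate 1 (adjusted p = 0.058). Quantile normalization (adjusted p = 0.070) and the mean over probe sets (0.066) also ended the Sgsh call of day 1. A dimmer Sgsh probe set gave -0.28 for day 1 over day 0 (adjusted p = 0.43 over probe sets) and 0.56 for day 3 over day 1 (adjusted p = 0.17), neither called. Ids, iduronate 2-sulfatase of Hunter syndrome, was 2661 to 3243 on day 1 and 3573 to 4622 on day 0 (-0.50 ± 0.12, adjusted p = 0.013). The Ids call was lost without day 0 replicate 3 (adjusted p = 0.060) and with the mean over probe sets (adjusted p = 0.17), and 3 further Ids probe sets gave changes of -0.48 to -0.01, none of them called.

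Gusb, in the same degradation pathway, moved the other way. It encodes beta-glucuronidase, deficient in Sly syndrome. Its signal was 1648, 1541 and 1565 on day 0, 2384, 1894 and 1979 on day 1, and 4186, 3963 and 3700 on day 3. Each day lay wholly above the one before. Gusb was 2.49-fold higher on day 3 than on day 0 (1.32 ± 0.12, adjusted p = 1.6e-05), which was the largest day 3 change among the 32 members, and 1.90-fold higher on day 3 than on day 1 (0.93 ± 0.12, adjusted p = 0.00047). On day 1 it was 1.31-fold higher than on day 0 (0.39 ± 0.12, adjusted p = 0.027). That day 1 call was lost without any 1 of the 3 day 0 mice or day 1 replicate 1 (adjusted p 0.050 to 0.10), and a second probe set gave 0.21 (adjusted p = 0.29). It was also lost for Gusb with the mean over probe sets (0.078) or only the 6 arrays compared (0.070). Idua, alpha-L-iduronidase of Hurler syndrome, was 626 to 677 on day 3 and 412 to 524 on day 1 (0.46 ± 0.14, adjusted p = 0.042), and the call was lost without day 0 replicate 1 or 3, day 1 replicate 1 or 2, or any day 3 mouse (adjusted p 0.051 to 0.14). Under quantile normalization, median centring, no filter, the mean over probe sets or only the 6 arrays compared Idua was not called either (adjusted p 0.059 to 0.11). Naglu, alpha-N-acetylglucosaminidase, had changes of -0.12 ± 0.14 on day 1 and 0.25 ± 0.14 on day 3 over day 0, neither called. For day 3 over day 1 all 6 estimates of this group were positive, 0.21 to 0.93, and 4 were called (66.7%, against 9.66% of all genes called higher).

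**Figure D4:**
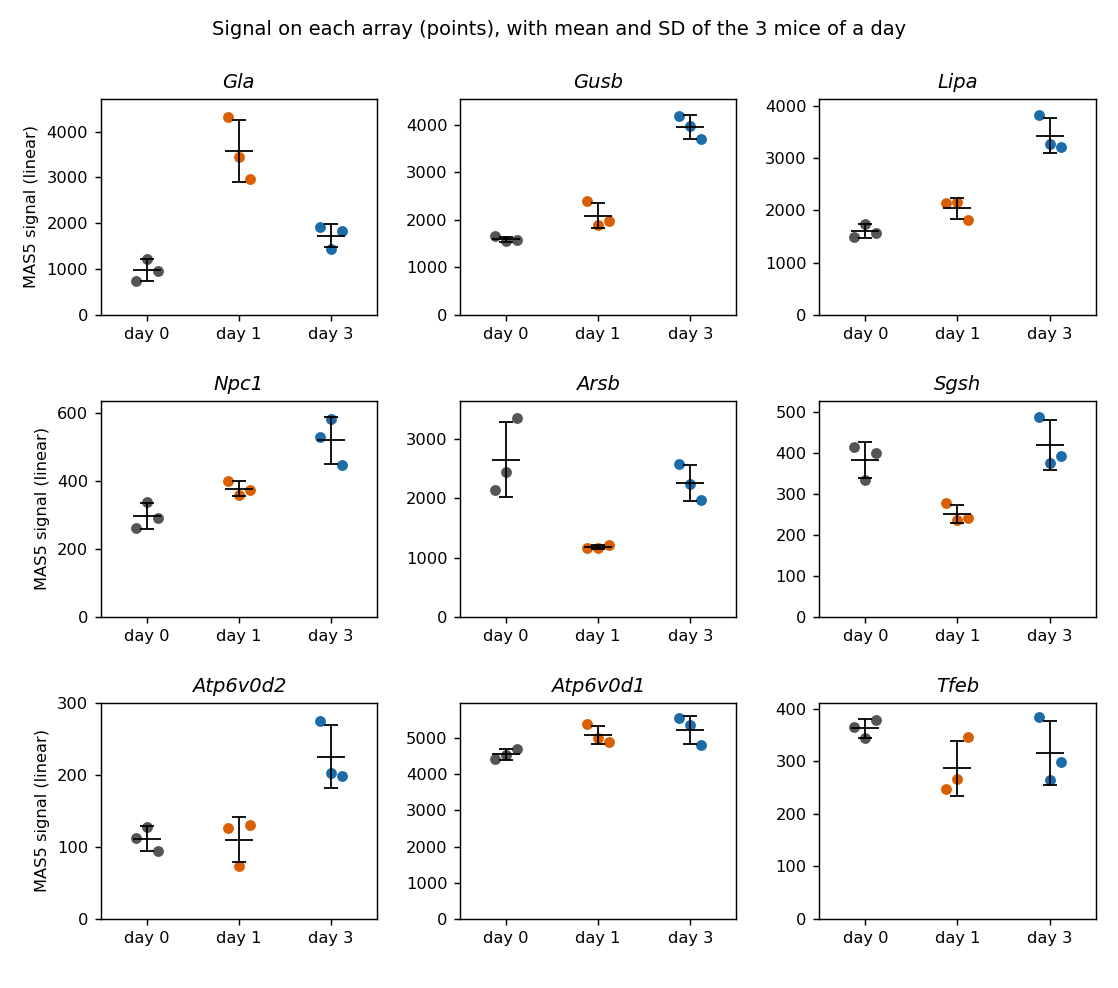
MAS5 signal (vertical axes, linear, from 0) of 9 genes on the 9 arrays, with points for the 3 mice of days 0, 1 and 3 and bars for the mean and SD. Gla peaked on day 1, Gusb, Lipa, Npc1 and Atp6v0d2 were highest on day 3, Arsb and Sgsh were lowest on day 1, and Tfeb overlapped between all days.

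The 3 genes of lysosomal lipid and cholesterol handling were estimated above day 0 on both later days. Lipa encodes lysosomal acid lipase, which hydrolyses cholesteryl esters and triglycerides. Its signal was 1491, 1750 and 1577 on day 0, 2148, 2154 and 1815 on day 1, and 3830, 3270 and 3210 on day 3, with no overlap between days. Lipa was 2.14-fold higher on day 3 than on day 0 (1.10 ± 0.12, adjusted p = 8.3e-05) and 1.69-fold higher on day 3 than on day 1 (0.75 ± 0.12, adjusted p = 0.0023). The day 1 change of 0.34 ± 0.12 narrowly missed the threshold (adjusted p = 0.053). Over its 3 probe sets the day 3 change was 1.04 to 1.45, called in each. Their day 1 changes were 0.33 to 0.57, of which the highest was called (adjusted p = 0.0087 over probe sets).

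Npc1 and Npc2 act in turn in the export of cholesterol from the lysosome: NPC2 is a soluble carrier in the lumen that hands cholesterol to NPC1 in the membrane. Npc1 had signals of 260, 339 and 290 on day 0, 400, 357 and 373 on day 1, and 530, 582 and 446 on day 3. Its days did not overlap, and the day 3 level was 1.75-fold above day 0 (0.81 ± 0.15, adjusted p = 0.0026), while the day 1 change of 0.35 ± 0.15 was not called (adjusted p = 0.099). Npc2 was highest on day 1, with 17014 to 18626 on day 1 and 11075 to 13046 on day 0 (0.54 ± 0.09, adjusted p = 0.0019). On day 3 it was 13372 to 15449, a change of 0.23 ± 0.09 from day 0 that was not called (adjusted p = 0.094). Npc2 was lower on day 3 than on day 1 (-0.31 ± 0.09, adjusted p = 0.045), but this call was lost without day 0 replicate 3, day 1 replicate 1 or 2, or day 3 replicate 1 or 2 (adjusted p 0.067 to 0.17). Quantile normalization, no filter, the mean over probe sets, no probe sets with shared transcripts, no variance trend and only the 6 arrays compared also ended that Npc2 call (adjusted p 0.059 to 0.17). In the fit over probe sets, 3 Npc2 probe sets gave day 1 changes of 0.29 to 0.54, of which 2 were called higher. For day 3 over day 1 they gave -0.31 to -0.08, and 0 were called. For Npc1 the change of day 3 over day 1 was 0.46 ± 0.15 (adjusted p = 0.065).

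Of the 6 enzymes that take apart glycoproteins and other oligosaccharides, Ctsa alone was called on both days. Ctsa encodes cathepsin A, the protective protein that holds beta-galactosidase and neuraminidase in a complex. Its signal was 3714, 4262 and 4161 on day 0, 5728, 5455 and 4983 on day 1, and 6828, 6244 and 5561 on day 3. Ctsa was 1.53-fold higher on day 3 than on day 0 (0.62 ± 0.11, adjusted p = 0.0020) and 1.33-fold higher on day 1 than on day 0 (0.41 ± 0.11, adjusted p = 0.017). The day 1 call was lost without day 0 replicate 1 (adjusted p = 0.065) or day 1 replicate 1 (adjusted p = 0.063), and under quantile normalization (adjusted p = 0.054). Glb1, the beta-galactosidase of this complex, was 1004 to 1289 on day 3 and 807 to 910 on day 0 (0.39 ± 0.13, adjusted p = 0.045). Glb1 lost that call without any of the 3 day 0 mice or without day 3 replicate 1 or 2 (adjusted p 0.071 to 0.18), and with no filter (adjusted p = 0.056) or no variance trend (adjusted p = 0.055). Its change for day 3 over day 1 was 0.42 ± 0.13 (adjusted p = 0.049), a call lost without any of the arrays except day 3 replicate 3 (adjusted p 0.052 to 0.19). Quantile normalization, median centring, no filter, no probe sets with shared transcripts, no variance trend and only the 6 arrays compared ended it as well (adjusted p 0.053 to 0.15).

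Neu1, the neuraminidase of the same complex, had signals of 1400 to 1509 on day 0, 1464 to 1704 on day 1 and 1160 to 1379 on day 3, and none of its changes was called. Man2b1, lysosomal alpha-mannosidase, was 4130 to 5153 on day 3 and 2924 to 3447 on day 1 (0.57 ± 0.12, adjusted p = 0.012), with a day 1 change of -0.36 ± 0.12 from day 0 (adjusted p = 0.051). The Man2b1 call was lost without day 3 replicate 1 (adjusted p = 0.067) or day 3 replicate 2 (adjusted p = 0.060), with the mean over probe sets (adjusted p = 0.089) and without probe sets that may share transcripts (adjusted p = 0.38). Fuca1, alpha-L-fucosidase, had changes of -0.28 ± 0.15 on both days, and Gaa, the acid glucosidase that degrades glycogen, changes of -0.13 ± 0.13 on day 1 and 0.22 ± 0.13 on day 3 over day 0. None of these 4 changes was called.

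The 3 genes of protein breakdown and depalmitoylation are linked to neuronal ceroid lipofuscinosis. Grn encodes progranulin, which is cleaved to granulins in the lysosome. Its signal was 15147 to 16011 on day 3, against 10979 to 13101 on day 1 and 10335 to 12974 on day 0, so the day 3 arrays lay above all others. The day 3 change from day 0 was 0.44 ± 0.10 (adjusted p = 0.0092). From day 1 it was 0.37 ± 0.10 (adjusted p = 0.034), a call lost without day 1 replicate 1 or 2 or any of the 3 day 3 mice (adjusted p 0.069 to 0.13), and with median centring, no filter or no variance trend (adjusted p 0.078 to 0.12). Over 3 Grn probe sets the day 3 change from day 0 was 0.44 to 1.00. Tpp1, tripeptidyl peptidase 1, was 4328 to 5074 on day 3 and 3116 to 3831 on day 0, a change of 0.41 ± 0.14 that missed the threshold (adjusted p = 0.052). A dimmer Tpp1 probe set was called higher on day 3 than on day 0 (0.62, adjusted p = 0.0076 over probe sets). It was also called higher on day 3 than on day 1 (0.68, adjusted p = 0.0091). Ppt1, palmitoyl-protein thioesterase 1, had a change of 0.06 ± 0.12 on day 3 over day 0.

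Among the membrane glycoproteins and the channel, Lamp2 was called on day 1 only. LAMP2, of which splice forms differ in the tail that faces the cytosol, takes part in chaperone-mediated autophagy and in the fusion of autophagosomes. Its brightest probe set was 13477 to 16989 on day 1 and 8631 to 12151 on day 0 (0.60 ± 0.13, adjusted p = 0.0072). On day 3 it was 9984 to 11343, which was within the day 0 range and 1.48-fold below day 1 (-0.57 ± 0.13, adjusted p = 0.016). That fall was lost without day 1 replicate 2, day 3 replicate 1 or day 3 replicate 3 (adjusted p 0.055 to 0.071), and with the mean over probe sets (adjusted p = 0.15). The 4 Lamp2 probe sets gave day 1 changes of 0.37 to 0.87, and day 3 changes from day 0 of -0.08 to 0.54, of which 1 was called. Lamp1, its close relative, had changes of 0.13 ± 0.11 on day 1 and 0.18 ± 0.11 on day 3 over day 0, neither called. Mcoln1, the cation channel that releases calcium from the lysosome, had changes of 0.02 ± 0.11 and 0.16 ± 0.11 in its brightest probe set, also not called.

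Of the 4 proton pump subunits, Atp6v1a and Atp6v1b2 were higher on both days. They encode the A and B subunits of the catalytic head of the V-ATPase, which hydrolyses ATP. Atp6v1b2 was 3262 to 3575 on day 1, 3308 to 3482 on day 3 and 2007 to 2276 on day 0. Its changes from day 0 were 0.67 ± 0.10 on day 1 (adjusted p = 0.00069) and 0.67 ± 0.10 on day 3 (adjusted p = 0.00064), and day 3 differed from day 1 by -0.00 ± 0.10. With the mean over probe sets the day 3 change of Atp6v1b2 was 0.47 (adjusted p = 0.061). Atp6v1a was 4018 to 5243 on day 1, 3755 to 4740 on day 3 and 2765 to 3501 on day 0, with changes of 0.60 ± 0.14 (adjusted p = 0.0096) and 0.48 ± 0.14 (adjusted p = 0.027). The day 3 call of Atp6v1a was lost without day 0 replicate 1, day 0 replicate 3, day 3 replicate 1 or day 3 replicate 3 (adjusted p 0.059 to 0.12).

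Atp6v0d1 and Atp6v0d2 encode alternative d subunits of the membrane sector. The d1 form is made in most cells, and the d2 form is known from osteoclasts, macrophages and some epithelia. Atp6v0d1 had signals of 4410, 4519 and 4708 on day 0, 5375, 5008 and 4882 on day 1, and 5550, 5349 and 4797 on day 3. Both later days lay above day 0, but by 0.16 ± 0.10 (adjusted p = 0.22) and 0.20 ± 0.10 (adjusted p = 0.15), and neither was called. Atp6v0d2 had signals of 112, 128 and 93.8 on day 0, 126, 74.1 and 131 on day 1, and 276, 202 and 200 on day 3. Days 0 and 1 overlapped, day 1 replicate 2 was not called present, and all day 3 arrays were above the rest. Atp6v0d2 was 2.02-fold higher on day 3 than on day 0 (1.02 ± 0.25, adjusted p = 0.012) and 2.09-fold higher on day 3 than on day 1 (1.06 ± 0.25, adjusted p = 0.017). Without day 3 replicate 1 these changes were 0.86 (adjusted p = 0.060) and 0.91 (adjusted p = 0.084), and without day 1 replicate 2 the change from day 1 was 0.80 (adjusted p = 0.053). A second probe set was called present on all 3 day 3 arrays, with 365, 190 and 251, and on none of days 0 and 1, where it was 46.3 to 108. Of the osteoclast and fused macrophage markers, Ocstamp and Oscar were present on no array, Dcstamp on 2 day 3 arrays and Calcr on 1 day 1 array, while Ctsk was lower on day 3 than on day 0 (-0.74 ± 0.13, adjusted p = 0.0017).

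Tfeb, the transcription factor that drives lysosomal genes, was called present on too few arrays to pass the filter. Its only probe set was called present on 2 day 0 arrays, 1 day 1 array and 0 day 3 arrays. The signals were 365, 343 and 379 on day 0, 247, 267 and 346 on day 1, and 383, 264 and 298 on day 3, and the 3 days overlapped. With this detection no test was made. Its relatives were measured: Tfec was 2.61 ± 0.21 above day 0 on day 1 (adjusted p = 8.3e-06) and 2.33 ± 0.21 above it on day 3 (adjusted p = 2.1e-05), Mitf 0.45 ± 0.13 and 0.53 ± 0.13 above it (adjusted p = 0.026 and 0.013), and Tfe3 0.48 ± 0.14 above it on day 3 (adjusted p = 0.023).

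Other genes of the same machinery were counted from fixed lists, and the shares of all genes called (10.7% higher and 17.9% lower on day 1, 13.6% and 12.5% on day 3) are the background of these counts. Of 18 MiT factors and nutrient sensing genes at the lysosome, limma called 6 higher (33.3%) and 0 lower on day 1, and 5 higher (27.8%) and 0 lower on day 3, against day 0 (1 and 0 lower at an unadjusted p under 0.05). Fnip2, a partner of folliculin, was 1.49 ± 0.19 higher on day 1 (adjusted p = 0.00023), its relative Fnip1 0.67 ± 0.14 higher on day 1 (adjusted p = 0.0063) and the Ragulator subunit Lamtor1 0.53 ± 0.12 higher on day 3 (adjusted p = 0.0069). Mtor, the kinase itself, had a day 1 change of -0.25 ± 0.12 (adjusted p = 0.14). Of 15 other V-ATPase subunits, 7 were higher (46.7%) and 1 lower on day 1, 3 higher (20%) and 1 lower on day 3, and 0 were called by limma for day 3 over day 1 (1 higher and 3 lower at an unadjusted p under 0.05). Atp6v1h (0.69 ± 0.15, adjusted p = 0.0078), Atp6v0e (0.60 ± 0.17, adjusted p = 0.020) and Atp6v1c1 (0.60 ± 0.10, adjusted p = 0.0018) were higher on day 1, Tcirg1, the a3 subunit, was higher on day 3 (0.86 ± 0.15, adjusted p = 0.0015), and Atp6v0e2 was lower on day 1 (-0.56 ± 0.17, adjusted p = 0.027).

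Of 20 other lysosomal hydrolases, 6 were higher (30.0%) and 1 lower on day 1, and 7 higher (35.0%) and 1 lower on day 3, against day 0. The largest called changes were those of Hgsnat on day 1 (1.10 ± 0.19, adjusted p = 0.0020), a membrane enzyme of heparan sulfate breakdown, and of Galns on day 3 (1.02 ± 0.14, adjusted p = 0.00031), a sulfatase for keratan sulfate. Arsa, arylsulfatase A, was lower on day 1 (-0.41 ± 0.12, adjusted p = 0.027) and Acp5, tartrate-resistant acid phosphatase, on day 3 (-0.34 ± 0.10, adjusted p = 0.031). Of 25 other lysosomal membrane proteins, 4 were higher and 4 lower on day 1 (16% each, near the background), and 6 higher (24.0%) and 1 lower on day 3. Slc11a1, a metal ion transporter of phagosomes, was 1.47 ± 0.16 higher on day 3 (adjusted p = 8.0e-05), Cd68, a macrophage sialomucin, 1.30 ± 0.14 higher (adjusted p = 5.8e-05) and Tpcn2, an endolysosomal cation channel, 1.08 ± 0.16 higher (adjusted p = 0.00052), whereas Mcoln3 was lower (-1.01 ± 0.27, adjusted p = 0.018). Of 11 genes of mannose 6-phosphate tagging and sorting, 3 were higher and 3 lower on day 1 (27.3% each) and 0 were called on day 3 against day 0 by limma (4 higher and 1 lower at an unadjusted p under 0.05). The receptor Igf2r was among the lower ones (-0.57 ± 0.13, adjusted p = 0.0080), and the retromer subunit Vps26a among the higher (0.72 ± 0.16, adjusted p = 0.0076). Of 19 autophagy genes, 3 were higher and 3 lower on day 1 (15.8% each), and 2 higher (10.5%) and 3 lower (15.8%) on day 3, shares near the background. Calcoco1 had the largest called change of these on day 1 (-0.77 ± 0.22, adjusted p = 0.023), and Gabarapl1, an Atg8 family member, on day 3 (-0.75 ± 0.17, adjusted p = 0.0093).

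Where a gene had several probe sets, they mostly moved together. Of the 23 members with more than 1 probe set past the filter, the signs of the estimates differed in 3 for day 1 over day 0, in 4 for day 3 over day 0 and in 6 for day 3 over day 1, and in 0 of them did probe sets carry opposite calls. On day 1, the Neu1 probe sets gave 0.16 and -0.70, and the lower value was called (adjusted p = 0.047 over probe sets), while the Mcoln1 probe sets gave 0.16, 0.02 and -0.67, of which the lowest was called (adjusted p = 0.038). In both genes the lower probe set was the dimmer, at 140 to 232 on day 0 for Neu1 and 175 to 223 for Mcoln1, and it was called present on only 2 of the 3 day 1 arrays. For Atp6v1b2 the day 3 change was -0.11 to 0.74 over 4 probe sets, of which 2 were called higher and 2 had signals of 72.0 or less on every array. The other members with differing signs in some comparison were Man2b1, Ids, Lamp2, Atp6v0d2 and Atp6v1a.

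**Figure D5:**
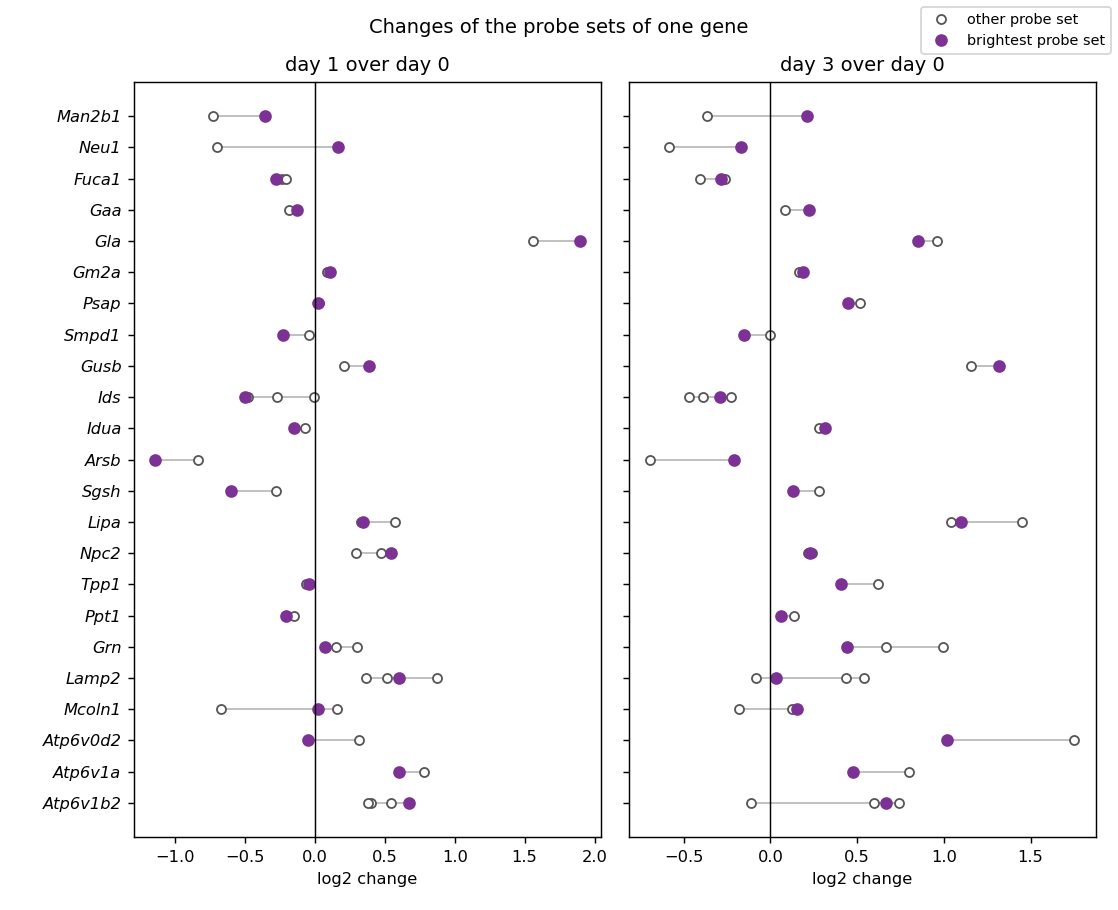
Log2 change (horizontal axes) of every probe set that passed the filter, for the 23 members with more than 1 (rows), for day 1 over day 0 and day 3 over day 0. Filled points are the brightest probe set, used for the tests, and open points the others, among them probe sets of Gla and Atp6v0d2 that were not called present on day 0. Gusb and Lipa lie above 0 and Arsb below it with every probe set, while Neu1 and Mcoln1 cross 0 on day 1.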

How the data were processed

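Total RNA of 9 SVF samples was hybridised by the authors to Affymetrix Mouse430_2 arrays, 1 array per mouse. The authors summarised the probes with MAS5 (version not given in the sources used here) and deposited, for each of 45101 probe sets, a linear signal scaled to a trimmed mean of 500, with a detection call and a detection p-value. The array's own scaling cannot show a change in total RNA per cell. Probe sets were named from GEO's platform annotation: 34945 carry 1 symbol, 932 several, 9160 none and 64 are controls. Per gene, the brightest probe set detected in all 3 mice of 1 or more days was used (11796 genes). Its log2 signal, with no offset, was fitted with limma 3.58.1 (lmFit, contrasts.fit, eBayes with trend) in R 4.3.3, with day as the factor over all 9 arrays (6 residual degrees of freedom), two-sided, with Benjamini-Hochberg adjustment over all genes. The methods name 3 individual mice a day. The fit was tested on simulated data. The precision is limited by the number of arrays.

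The members and gene lists were chosen with earlier results of these data known. Values on all arrays are given for members whose largest called change is 0.8 or more, and for Ctsa and Sgsh, chosen after their values were seen, Tfeb, Atp6v0d1 and Atp6v0d2. Other members are given by ranges, and related lists by up to 4 called genes and up to 2 others. Promoter windows come from RefSeq (GRCm38.p6). Related lists also name Mitf and Tfe3 as relatives of Tfeb. The fit was repeated after quantile normalization or centring on the median, with 16 or 64 added before taking logs, unfiltered, and with detection required on all 9 arrays. Further fits averaged the probe sets per gene, dropped those that may share transcripts, omitted the variance trend, weighted the arrays, took only the 6 arrays in question, used the series value table or added a replicate block. Each array was left out in turn, and calls were also made at 2-fold, at 0.01 and with the ANOVA named in the methods. Fits of single probe sets were chosen after seeing the data.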

Additional observations from a re-analysis of the deposited data

Results flagged for a closer look

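For 15 members (46.9%, against 14.2% of all genes) the level differed between the later days by the test of day 3 against day 1. The test had 3 mice a day and limma's adjusted p under 0.05. Days 1 and 3 have no nonprimed arrays, so priming and time cannot be told apart. Only 4 of the 15 calls (Gla, Gusb, Arsb and Lipa) held in every alternative limma fit, and the other 11 were lost in at least 1, with 3 to 12 members higher when 1 array was left out. Single probe sets are not counted among these fits, and a second probe set was not called for Gla (adjusted p = 0.068) or Arsb (0.73). Of the 15, 12 were higher on day 3 than on day 1. On the log2 scale the differences were 1.06 for Atp6v0d2, 0.93 for Arsb, 0.93 for Gusb, 0.75 for Lipa, 0.73 for Sgsh, 0.59 for Galc, 0.57 for Man2b1, 0.46 for Idua, 0.43 for Hexa, 0.42 for Psap, 0.42 for Glb1 and 0.37 for Grn. The 3 that were lower on day 3 than on day 1 were Gla at -1.05, Lamp2 at -0.57 and Npc2 at -0.31. Of 6 neutrophil markers 4, and of 5 monocyte markers 2, were also called lower on day 3 than on day 1, with median changes of -1.15 and -0.48. Of 13 macrophage markers (median 0.13) 3 were called higher on day 3 than on day 1, Trem2 by 2.26, Adgre1 by 0.69 and Csf1r by 0.60, and 1, Fcgr1, was lower (-0.68). Of these, Trem2 passed the filter through day 3 only. The part of these markers' cells in the differences of the members was not tested.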

How the results depend on the processing

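Of the 38 calls of members over the 3 comparisons, 18 held in every alternative limma fit, arrays left out included, and 20 were lost in at least 1. Single probe sets, the fold limit, the stricter threshold and the ANOVA are not counted here. The 18 include all calls of Gla and Lipa, Gusb on day 3 against both other days, Arsb in both its comparisons and Npc1 on day 3. Leaving out 1 array at a time gave 5 to 8 members higher and 1 to 4 lower for day 1 over day 0, 9 to 14 higher and 0 lower for day 3 over day 0, and, for day 3 over day 1, 3 to 12 higher and 1 to 3 lower. The lowest counts were 1 lower on day 1 without day 0 replicate 3 (all genes 8.48%), and 3 higher on day 3 than on day 1 without day 3 replicate 1 (all genes 4.20%). Without day 1 replicate 2 or day 3 replicate 2 that count was 5, and without day 1 replicate 2 or day 3 replicate 1 the count lower on day 3 than on day 1 was 1.

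With a 2-fold limit, 1 of 32 members was higher and 1 lower on day 1, where 3.65% and 3.36% of all genes were. On day 3, 3 members were higher than on day 0 (all genes 4.44%). For day 3 over day 1 the counts were 1 higher and 1 lower (all genes 2.08% and 1.60%). The methods' ANOVA with that limit gave the same counts, 1 and 1, 3, and 1 and 1, in its one-way form and with the replicate block. In the one-way form the shares of all genes were 3.59% and 2.78%, 4.43%, and 2.08% and 1.70%. With the block they were 3.48% and 2.42%, 4.25%, and 1.98% and 1.56%. At an adjusted p under 0.01 the counts were 5 higher and 1 lower on day 1, 8 higher on day 3 than on day 0, and for day 3 over day 1 they were 3 higher and 1 lower. The shares of all genes at that threshold were 5.96% and 5.99%, 7.82%, and 3.58% and 1.75%. For day 3 over day 1 the members higher numbered 7 with median centring and 7 with no filter, against 12, where 5.59%, 4.88% and 9.66% of all genes were higher. The members lower numbered 1 when probe sets were averaged per gene, against 3, where 4.20% and 4.54% of all genes were lower. Array weights gave 1 member, Ids, lower on day 3 than on day 0, against 0 (all genes 18.9%, against 12.5%). The cause of these shifts was not tested.

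Median centring moved the median of all genes from -0.13 to -0.01 for day 1 over day 0 and that of the members from 0.05 to 0.17. It gave 9 members higher and 3 lower, where 14.4% and 10.8% of all genes were. The share of all calls that were lower was 62.5% as scaled by the authors, 42.8% with median centring and 52.7% with quantile normalization for day 1 over day 0. For day 3 over day 1 it was 32.0% as scaled, 56.6% with median centring, and 38.7% with quantile normalization, under median centring with 7 members higher and 4 lower. Replicate numbers did not pair the arrays: deviations of same-numbered arrays correlated at -0.15 to 0.33 over 9 pairs, and of differently numbered arrays at -0.40 to 0.31 over 18. With the replicate block the counts of members were 7 higher and 3 lower on day 1 (all genes 11.3% and 18.5%), 13 higher on day 3 than on day 0 (13.6%), and for day 3 over day 1, 11 higher and 2 lower (9.58% and 5.22%). Under it Glb1 was not called for day 3 over day 0 (adjusted p = 0.060) or over day 1 (0.063), nor Idua (0.056) and Npc2 (0.057) for day 3 over day 1, while Tpp1 was called for day 3 over day 0 (0.034) and over day 1 (0.036). Of the signs that differed between probe sets, those in which the value used or the opposing one was called were Neu1 on day 1 (-0.70), Mcoln1 on day 1 (-0.67, also where probe sets that may share transcripts were left out), Lamp2 on day 3 over day 1 (0.026) and Atp6v1b2 on day 3 over day 0 (-0.11). Few present calls for Tfeb and low signals for Atp6v0d2 restrict what can be said of these genes.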
